A study of Saccharomyces cerevisiae with 16 samples.

Results

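Antisense transcript 3′ ends inside protein-coding open reading frames (ORFs) were counted in budding yeast microcolonies and batch cultures. A 3′ end belongs to this set when it lay inside an ORF of the R64 annotation on the strand opposite to the gene, and when no annotated gene on that opposite strand overlapped the ORF or lay within 1500 nt of either end. The distance rule keeps out 3′ ends of neighbouring genes that face the ORF. It left 1186 of 6002 protein-coding ORFs on chromosomes I to XVI, of which 619 lay on the plus strand and 25 were transposon ORFs, and the median length was 1251 nt. No tag value was used to choose these ORFs, which are called isolated ORFs below.

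All cells were the haploid Saccharomyces cerevisiae strain BY4741 (Mat a), which carries mutant alleles of his3, leu2, ura3 and met15, and all grew in rich medium (YPD). In 4 of the 6 groups each cell had been encapsulated in an alginate particle, at most 1 per particle, and had divided there into a microcolony. Small colonies (libraries of replicates 2 and 4) and big colonies (3 libraries) were fixed with ethanol and sorted by size, the total group (3 libraries) was fixed and not sorted, and the nofix group (2 libraries) was neither fixed nor sorted. The batch cultures YPD2 and YPD05 (2 libraries each) were grown without particles to an absorbance of 2 and 0.5. The design text speaks of biological replicates without saying how cultures were shared, so p-values measure the spread between these libraries only. Libraries were made from bulk RNA of many cells by 3′T-fill, which reads the base next to the poly(A) tail, so a higher count in fewer cells and a lower count in all cells cannot be told apart.

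Yeast genes are transcribed on both strands to different degrees. Antisense RNAs often start in the nucleosome-depleted region behind a gene, run back into the ORF and end there or near its promoter, and some are known to repress or activate the gene they overlap. Many are removed by the nuclear exosome, a 3′-to-5′ exonuclease, together with its TRAMP cofactor, or are ended early by the Nrd1-Nab3-Sen1 complex, while the histone methyltransferase Set2 and the deacetylase Rpd3S hold back transcription that starts inside genes. Only polyadenylated RNA is read by 3′T-fill. The end of a yeast mRNA is marked by an efficiency element such as TATATA, by a following A-rich element, and by a cleavage site with T-rich flanks.

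The sequences before the antisense 3′ ends of 9 isolated ORFs are shown here because the results below turn on these ORFs. Each runs 5′ to 3′ on the antisense strand. Its last base is the most used antisense 3′ end of the ORF in the pooled tags of the 14 libraries, not in every library by itself. Only bases inside the ORF are printed, at most 80, and capitals mark the efficiency element TATATA, its variants TACATA and likewise TATGTA, and the A-rich element AATAAA. GAS2, CSS1, YDR061W, ISA1, YSR3 and PEX21 had many antisense tags in most groups, and POM33, CDC28 and NAM8 differed between fixed and unfixed particles. For ISA1, YSR3 and PEX21 the printed run is shorter because it stops where the ORF does.
GAS2, chrXII:817577-817656, minus strand: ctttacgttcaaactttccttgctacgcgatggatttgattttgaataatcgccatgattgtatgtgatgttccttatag
CSS1, chrIX:24080-24159, plus strand: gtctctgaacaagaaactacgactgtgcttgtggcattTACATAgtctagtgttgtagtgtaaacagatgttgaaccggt
YDR061W, chrIV:575008-575087, minus strand: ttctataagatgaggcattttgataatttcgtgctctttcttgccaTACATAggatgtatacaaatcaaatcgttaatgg
ISA1, chrXII:88128-88155, minus strand: ttaaaccatgaaactctcgccacaaccg
YSR3, chrXI:534067-534088, plus strand: ctaccttaagtttgtccaagtg
PEX21, chrVII:969187-969207, plus strand: tcaatcaagtatgtctttgtg
POM33, chrXII:98014-98093, plus strand: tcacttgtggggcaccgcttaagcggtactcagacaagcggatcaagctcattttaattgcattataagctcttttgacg
CDC28, chrII:560713-560792, minus strand: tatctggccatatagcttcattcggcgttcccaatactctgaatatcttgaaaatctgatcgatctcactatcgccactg
NAM8, chrVIII:279515-279594, minus strand: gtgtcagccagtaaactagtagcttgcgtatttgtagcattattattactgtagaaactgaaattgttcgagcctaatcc
Coordinates and letters are those of the R64 genome in RefSeq. The windows of CSS1 and YDR061W hold TACATA, whereas those of GAS2, POM33, CDC28 and NAM8 hold none of the 4 motifs. The full 80 nt before the ends of YSR3 and PEX21 hold 4 and 1 efficiency-element matches, overlapping ones included. All of these lie past the stop codon, outside the printed bases. The full 80 nt of ISA1 hold none.

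The depth of the 14 libraries ranged from 1506960 tags in total replicate 2 to 7871184 tags in small replicate 4. Inside the isolated ORFs they held 113473 antisense tags in all, beside 9232471 sense tags, counted inside the ORF or up to 400 nt after it. Small replicate 4 stood apart, since the base at its antisense 3′ ends was A for 19.95% of tags, against 0.971% to 3.70% in the 13 other libraries. The labels of small replicate 4 disagree: its title and description name fixed small colonies, and its sample type names unfixed encapsulated cells. It was kept with the small colonies by its title, and the comparison of small with big colonies is given without it too. Its 19056 antisense tags are part of the pooled tags of the 14 libraries. The pooled counts of tags and ORFs, and the most used ends, motifs and base composition drawn from pooled tags, are not given without it. Small replicate 2 had antisense tags in 127 isolated ORFs, against 397 to 626 in the 13 other libraries. The ORFs of the strain's marker genes MET17 (MET15) and URA3 had 0 sense tags in every library, HIS3 had 8 in YPD2 replicate 2 and LEU2 had 1 in big replicate 2.

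Antisense tags were present in 1044 of the 1186 isolated ORFs, in at least 1 of the 14 libraries, and 142 had none. Only 33 ORFs had an antisense tag in each of the 14 libraries, and 77 had one in each of the 12 libraries other than the small colonies. Of the 866 ORFs with at least 10 antisense tags over the 14 libraries, 42 had more antisense than sense tags. The 10 ORFs with the most antisense tags held 18.2% of them. Within a library 12 to 72 ORFs held 50% of the antisense tags, and a single ORF held up to 15.4% (YSR3 in YPD2 replicate 1). Across the 1186 ORFs, antisense and sense tags of a library were weakly related, with a Spearman coefficient between 0.0957 in small replicate 2 and 0.237 in nofix replicate 2, given as a description because the points share library and depth.

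YSR3, which encodes a dihydrosphingosine 1-phosphate phosphatase of the endoplasmic reticulum, had the most antisense tags (5803 in 14 libraries). Its antisense level was 281.6 and 7.98 CPM (counts per 1000000 tags, with library sizes scaled by TMM) in small colonies, 166.6, 72.4 and 72.4 in big colonies, 76.0, 94.7 and 66.5 in total, 251.9 and 229.5 in nofix, 302.6 and 308.1 in YPD2 and 158.0 and 167.9 in YPD05. Small replicate 4 was the low library. Both YPD2 libraries lay above both YPD05 libraries, but YSR3 did not pass the edgeR test described below in that comparison (log2 0.91, SE 0.92). In YPD2 replicate 1, YSR3 had 873 antisense tags and 51 sense tags. Its most used antisense 3′ end lay near the stop codon, 1194 nt from the start codon of a 1215 nt ORF. It held 27.7% of the tags, counted within 12 nt, and was the most used end in 5 of the 14 libraries.

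CSS1, an uncharacterised secreted protein with similarity to HPF1, had antisense tags and almost no sense tags. Sense tags were 0 and 50 in small colonies and 1 at most in each of the 12 other libraries, against 45 to 427 antisense tags in those 12. The antisense level was 3.83 and 21.4 CPM in small colonies, 46.5 to 97.8 in big colonies, 39.1 to 57.5 in total, 58.2 and 37.4 in nofix, 148.0 and 116.3 in YPD2 and 40.6 and 48.7 in YPD05. Its most used antisense end lay mid-ORF, 1948 nt from the start codon of 2988 nt, held 64.3% of the tags and was the most used end in 13 of the 14 libraries. CSS1 holds repeats shared with its relatives, so the authors' alignment could have moved tags between them.

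GAS2, a glucanosyltransferase of the spore wall, was highest in small colonies. Its antisense level was 160.9 and 136.1 CPM in small colonies, 58.3, 100.4 and 61.8 in big colonies, 56.1, 98.2 and 49.5 in total, 25.4 and 28.7 in nofix, 17.0 and 34.6 in YPD2 and 51.1 and 24.7 in YPD05. The groups of small and big colonies did not overlap, but GAS2 did not pass the edgeR test described below in that comparison (log2 1.01, SE 0.55, adjusted p = 0.305). Its ends were scattered, since the most used one held 8.26% of the tags.

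YDR061W, a gene of unknown function that resembles ABC transporters, had the most recurrent antisense 3′ end of the ORFs shown. It held 79.5% of 1225 antisense tags and was the most used end in 14 of 14 libraries. The level was 23.0 and 2.42 CPM in small colonies, 42.0, 28.03 and 25.1 in big colonies, 28.6, 12.2 and 94.5 in total, 64.3 and 75.6 in nofix, 14.9 and 6.48 in YPD2 and 13.9 and 14.1 in YPD05. PEX21, a factor of peroxisomal protein import, had its most used end in 9 of 14 libraries, 847 nt from the start codon of 867 nt, with 54.7% of the tags.

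Antisense RNA took the largest share of tags in unfixed microcolonies. The antisense share of all tags (antisense and sense) of the isolated ORFs was 1.20% and 1.51% in small colonies, 0.778%, 0.751% and 0.816% in big colonies, 0.904%, 0.594% and 0.924% in total, 3.40% and 3.10% in nofix, 0.812% and 1.14% in YPD2 and 0.671% and 0.649% in YPD05. Both nofix libraries lay above all 12 others and the small-colony libraries came next, above the other 10. The exact 95% binomial intervals were narrow beside these gaps, for example 3.35% to 3.45% in nofix replicate 1 and 0.649% to 0.694% in YPD05 replicate 1, and they cover counting error only. An exact permutation test of the log2 antisense-to-sense ratio over all 3153150 ways to divide the libraries into groups of these sizes gave F = 27.5 and p = 0.00149, and p = 0.0145 without the small colonies.

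**Figure D1:**
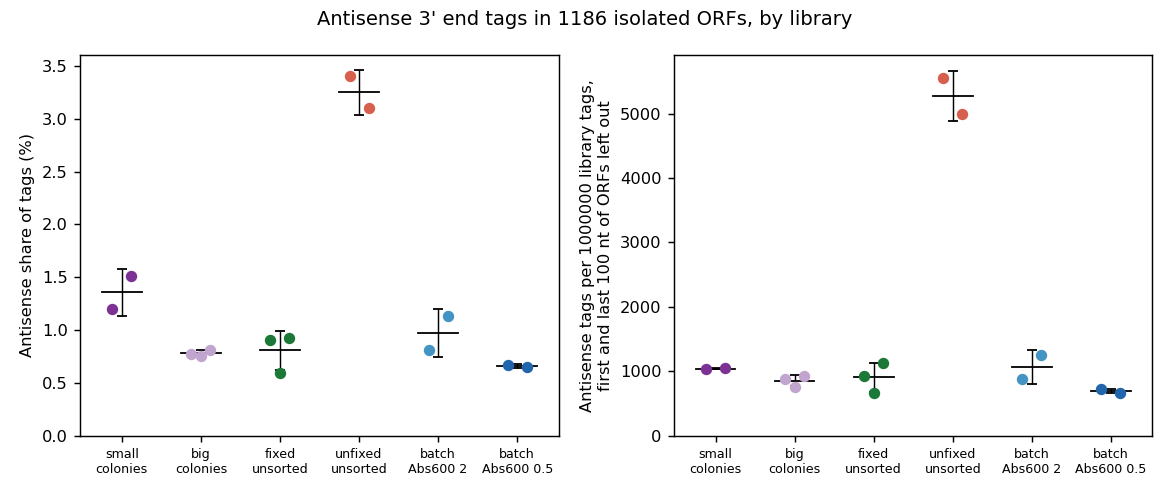
Antisense share of tags in percent (left) and antisense tags per 1000000 library tags with the first and last 100 nt of each ORF left out (right), for the 1186 isolated ORFs. Each point is 1 library, horizontal lines are group means and bars are ± 1 SD (n = 2 or 3). The nofix points lie at 3.40% and 3.10%, above all others.

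Antisense tags were also more numerous in nofix per library tag, not only per sense tag. Per 1000000 tags of the library, antisense tags in isolated ORFs numbered 8111 and 7163 in nofix, against 1339 to 2472 in the 12 other libraries. Thinned to 1500000 tags, 579.7 and 564.2 of the 1186 ORFs would hold an antisense tag in nofix, against 437.2 and 435.1 in YPD05 and 501.8, 396.4 and 469.2 in total. Sense tags inside the ORF, rather than after it, made up 13.3% and 11.4% of sense tags in nofix and 13.9% and 20.01% in YPD05.

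The position of the antisense ends differed as well. The median antisense tag lay at 0.748 to 0.901 of the ORF length from the start codon in the 14 libraries, that is, towards the stop codon, where an antisense transcript enters. In 12 libraries 37.9% to 51.8% of the antisense tags lay in the last 100 nt before the stop codon, against 27.7% and 26.3% in the nofix libraries. A stretch of 100 nt per ORF came to 6.59% of the bases of the isolated ORFs. With the ORF cut into 10 equal parts, part 9 held 20.3% and 18.7% of the antisense tags in nofix, against 6.61% to 14.8% in the 12 others. With the first and last 100 nt left out, antisense tags were 5550 and 4998 per 1000000 tags in nofix and 720.0 and 670.7 in YPD05, while in the last 100 nt they were 2242 and 1886 against 702.3 and 728.4.

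**Figure D2:**
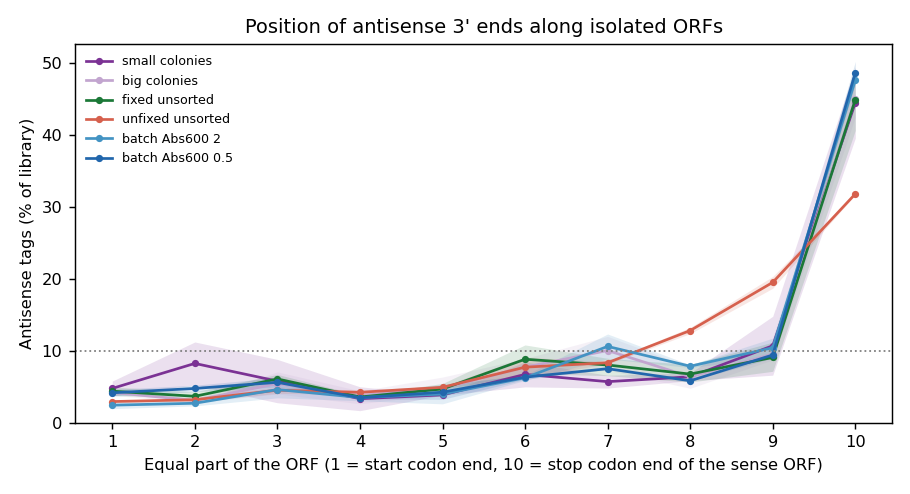
Share of a library's antisense tags in percent (vertical axis) in each of 10 equal parts of the isolated ORFs (horizontal axis, from the start codon end to the stop codon end of the sense gene). Lines are group means, shading spans the lowest to the highest library, and the dotted line marks 10%. The group means of nofix are lower in part 10 and higher in parts 8 and 9 than those of the other groups.

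The total group was set against nofix, which differs from it by the lack of ethanol fixation. The antisense-to-sense ratio averaged -6.97 ± 0.36 on the log2 scale in total (SD, n = 3) and -4.90 ± 0.10 in nofix (SD, n = 2), a difference of -2.07 (SE 0.22), or 0.238-fold. The groups did not overlap, and the two-sided exact permutation test gave p = 0.2, the smallest that 3 against 2 libraries allow. Counted over all 1186 ORFs, with no filter, the mean antisense level was higher in total in 314, lower in 632 and without a tag in both groups in 240, while the sense level of the same ORFs was higher in 552 and lower in 568. The antisense level of these ORFs leaned to 1 side. The even split of the sense level is no independent contrast, because the TMM scaling rests mostly on sense counts and centres them.

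Antisense counts of single ORFs were tested with edgeR's quasi-likelihood test in 1 fit of 6010 features over 14 libraries, with sense counts of all protein-coding genes and antisense counts of the isolated ORFs (Benjamini-Hochberg adjustment over all features, threshold 0.05). Of the 1186 ORFs, 487 had enough antisense tags for the fit. Of these, 24 were lower in total than in nofix and 0 were higher, which is 4.93%, near the 5.86% of all features called in either direction and above the 2.53% called lower. The filter admits ORFs that are high in nofix alone, so this share is a description. Each of the 24 calls was also made without the small-colony libraries, when 84 ORFs were lower and 5 higher of 448 tested (18.8% lower and 1.12% higher, beside 9.49% and 10.1% of all features, of which 19.6% were called in either direction). The calls are fragile in number: 2, 5 and 5 were left without total replicate 1, 2 or 3, and 1 and 4 without nofix replicate 1 or 2.

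NAM8, a protein of the U1 snRNP needed for splicing of meiotic introns, had antisense tags almost only in unfixed particles. They numbered 0, 0 and 1 in total and 211 and 205 in nofix, and elsewhere 0 and 0 in small colonies, 0, 0 and 2 in big colonies, and 0 in each YPD2 and YPD05 library. Sense tags were 30, 2 and 16 in total and 43 and 16 in nofix. The nofix libraries were the only ones above 2 antisense tags, and the pooled level was 825.8-fold higher there than in total (exact 95% counting interval 147.4 to 32700; adjusted p = 0.00674, edgeR's quasi-likelihood test). Against YPD05, where 3 tags in the group are the limit that a count of 0 allows, nofix was at least 106.1-fold higher (adjusted p = 0.0257). The antisense ends in NAM8 were spread, since the most used one held 12.2% of 419 tags.

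CDC28, the cyclin-dependent kinase that drives the cell cycle, is a locus where an antisense RNA has been described that is induced under osmotic stress. Of 13 loci with antisense RNAs known in budding yeast, CDC28 and TIR1 were isolated ORFs. CDC28 had 8, 0 and 4 antisense tags in total and 95 and 161 in nofix, while its sense tags were 441, 95 and 150 in total and 274 and 192 in nofix. Antisense levels were 0.988 ± 0.861 CPM in total (SD, n = 3) and 55.8 ± 20.1 CPM in nofix (SD, n = 2), so that the log2 fold change was -5.59 (SE 1.52, edgeR's quasi-likelihood test, adjusted p = 0.0417), and the sense level did not pass (log2 -0.46, adjusted p = 0.651). The antisense call was lost in each of the 5 fits that left out a library of these groups. TIR1, a cell wall mannoprotein of the cold response, had 2 antisense tags in all 14 libraries, so no difference was detectable at this depth.

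Other ORFs with more antisense RNA in unfixed particles encode proteins with varied roles. POM33, a transmembrane protein of the nuclear pore, had 3.75, 0.869 and 1.39 antisense CPM in total and 151.3 and 202.6 in nofix (log2 -6.31, SE 1.26, edgeR adjusted p = 0.00816). Its sense level also fell in total relative to nofix (log2 fold change -2.09, adjusted p = 0.0278). SOD2, the mitochondrial superoxide dismutase, had 0.395, 0.869 and 0.693 antisense CPM in total and 89.6 and 58.3 in nofix (log2 -6.85, SE 1.41, edgeR adjusted p = 0.0103). In both genes the groups did not overlap. In nofix SOD2 had 205 and 134 antisense tags and 54 and 124 sense tags, so the antisense strand held the more.

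ALD2, a cytosolic aldehyde dehydrogenase, had 4.54, 3.48 and 0.346 antisense CPM in total and 98.8 and 70.0 in nofix (log2 -4.90, SE 1.36, edgeR adjusted p = 0.0435). KTR7, a mannosyltransferase, had 7.11, 3.48 and 12.5 in total and 98.4 and 96.1 in nofix (log2 -3.63, SE 0.92, edgeR adjusted p = 0.0270). HOS4, a subunit of the Set3 histone deacetylase complex, had 4.54, 7.82 and 5.89 in total and 75.2 and 64.8 in nofix (log2 -3.54, SE 0.94, edgeR adjusted p = 0.0357). In all 3 the antisense RNA was present in every library of both groups and was lower in total. KTR7 stood at 44.0 and 73.2 CPM in YPD2 as well, between total and nofix.

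For ORFs with no antisense tag in any total library only a bound can be given, with 3 tags over the group as the limit. GPG1, a subunit that acts with the glucose-sensing G protein Gpa2, was at least 97.3-fold lower in total, with 89 and 58 tags in nofix (adjusted p = 0.00958). FMP16, a mitochondrial protein of unknown function, was at least 84.0-fold lower, with 61 and 66 tags in nofix. CAF40, a subunit of the Ccr4-Not deadenylase complex, was at least 74.1-fold lower, with 40 and 72 tags. UGP1, which makes UDP-glucose, and RGI1, a protein of energy metabolism, were at least 60.2-fold and 50.2-fold lower. The sense tags of GPG1, UGP1 and RGI1 fell in total too, with log2 fold changes of -3.76, -3.72 and -4.69, whereas those of CAF40 did not pass the test. FMP16 also had fewer sense tags in total, at 1.18, 1.74 and 2.42 CPM against 43.3 and 19.1 CPM in nofix.

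The other 12 ORFs called lower in total were ISA1, CAF120, CYC3, CIT2, ERG28, RPS26A, SBP1, CAP2, YJL163C, YLR365W, BUB3 and ICL2. RPS26A has a near-identical copy, RPS26B, and its counts are less certain. Among them BUB3, a spindle checkpoint protein, had 2, 0 and 11 antisense tags in total and 112 and 231 in nofix. ICL2, a mitochondrial 2-methylisocitrate lyase, had 0, 0 and 1 in total and 77 and 194 in nofix. CAP2, the beta subunit of capping protein, had 3, 0 and 0 in total and 123 and 11 in nofix, so its higher level rested mostly on nofix replicate 1.

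**Figure D3:**
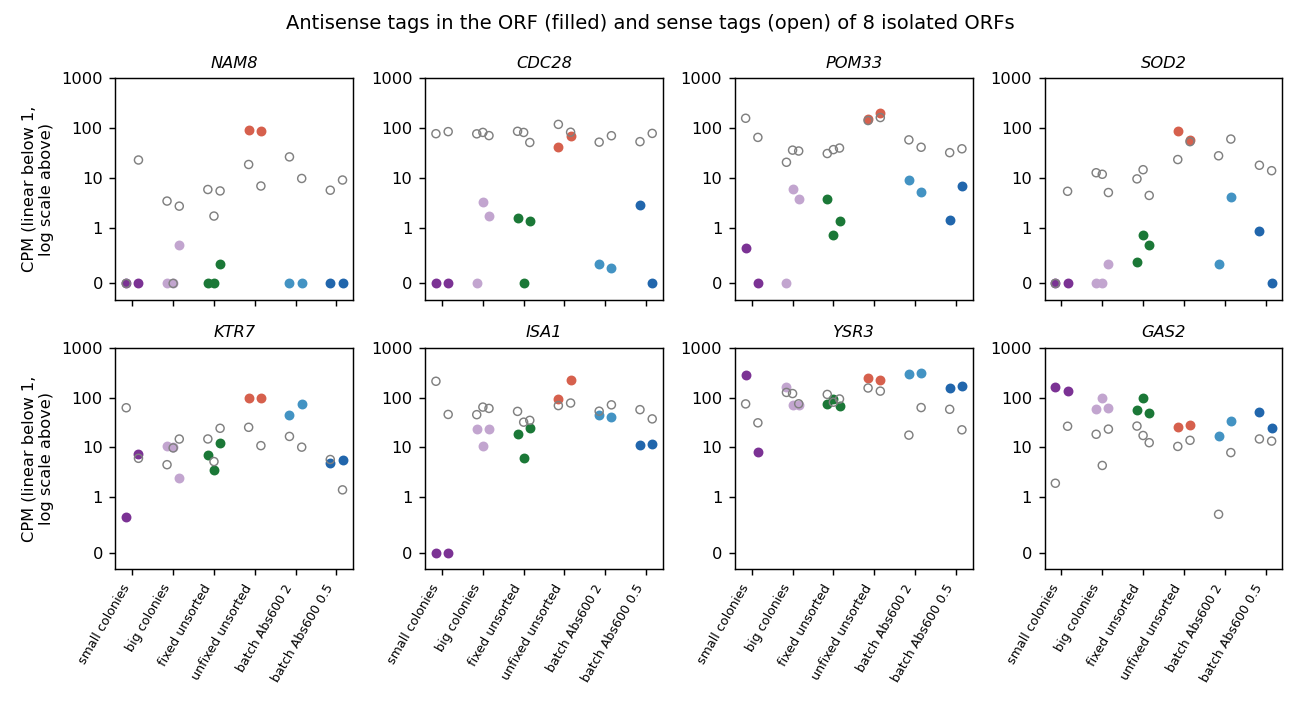
Antisense tags inside the ORF (filled points) and sense tags (open points) of 8 isolated ORFs, in CPM on an axis that is linear below 1 and logarithmic above, 1 point per library. NAM8, CDC28, POM33 and SOD2 reach 41.5 to 202.6 antisense CPM in nofix and stay at or below 9.36 CPM elsewhere, while YSR3 and GAS2 are high in most groups.

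The antisense count was also read against the sense count of the same ORF. This ratio was tested in edgeR with the library as a term, for 4648 ORFs of which 859 were isolated. In total against nofix, 10 of the 859 isolated ORFs were called, all with a lower ratio in total. This share was near the background, since 1.10% of all ORFs fitted were called in either direction and 0.990% lower. The 10 were CAF40, CAF120, CIT2, NMD3, DBP8, DNF2, ZRT1, NOP19, SBE22 and TPK3. Without total replicate 3, 1 of these calls was left, and without each of the other 4 libraries 0 were left.

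The ratio calls joined changes on both strands in some ORFs. NMD3, an export adapter of the large ribosomal subunit, had 0, 0 and 0 antisense tags in total and 61 and 16 in nofix, while its sense tags were 7564, 1312 and 3911 in total and 236 and 430 in nofix. Its sense level was higher in total, at 1329 ± 178 CPM (SD, n = 3) against 145.1 ± 59.2 CPM in nofix (SD, n = 2; log2 3.20, edgeR adjusted p = 0.0103). DBP8, a helicase of ribosome assembly, and NOP19, a factor of the small-subunit processome, were higher in sense in total too (log2 3.94 and 3.70, adjusted p = 0.00680 and 0.00872). CAF120, another protein of the Ccr4-Not complex, had 4, 1 and 0 antisense tags in total and 156 and 68 in nofix, beside 499, 38 and 170 sense tags in total and 38 and 30 in nofix. In nofix it was the antisense strand of CAF120 that carried the more tags. SBE22, a protein of bud growth, had 8 and 107 antisense tags in nofix and 0 in the 12 other libraries, so its level came mostly from nofix replicate 2.

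The nofix group was then set against batch culture at absorbance 0.5, the control without particles. The log2 antisense-to-sense ratio averaged -4.90 ± 0.10 in nofix and -7.23 ± 0.03 in YPD05 (SD, n = 2 each), a difference of 2.34 (SE 0.07), or 5.06-fold, and the groups did not overlap (two-sided exact permutation p = 0.333, the smallest that 2 against 2 allow). Over all 1186 ORFs the antisense level was higher in nofix in 651, lower in 234 and without a tag in both in 301, with sense higher in 568 and lower in 541. The comparisons with total and with YPD05 share the nofix libraries and are not independent.

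In the test of single ORFs, 3 of 487 antisense counts were higher in nofix than in YPD05 and 0 lower, which is 0.616% beside 1.85% of all features in either direction and 0.715% higher, a share near the background. They were NAM8, ISA1 and CAF120. ISA1, a mitochondrial protein of iron-sulfur cluster assembly, had 210 and 510 antisense tags in nofix and 23 and 17 in YPD05, which gave a log2 difference of 3.77 (SE 0.87, edgeR's quasi-likelihood test, adjusted p = 0.0358), while its sense tags were 158 and 179 in nofix and 120 and 53 in YPD05. CAF120 had 156 and 68 antisense tags in nofix and 1 and 0 in YPD05 (adjusted p = 0.0491). None of the 3 calls was left without either nofix library or without either YPD05 library.

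Without the small-colony libraries, whose spread entered the fit, 41 antisense counts were higher in nofix and 3 lower, of 448 tested (9.15% and 0.670%, beside 5.23% and 7.26% of all features, of which 12.5% were called in either direction). These added ORFs were named after their values were seen. Among the higher ones POM33 stood at 176.9 CPM in nofix and 4.25 CPM in YPD05, KTR7 at 97.2 and 5.21, DSD1, a D-serine dehydratase, at 92.7 and 5.79, and SOD2 at 74.0 and 0.478. CDC28 was among them as well (55.8 CPM in nofix and 1.43 CPM in YPD05, edgeR adjusted p = 0.0209 in that fit and 0.160 with the small colonies in it). The 3 lower ones were the ribosomal protein genes RPL7A (0.872 and 36.4 CPM) and RPL34A (0.656 and 11.8 CPM) and the ORF YHR130C. RPL7A and RPL34A have near-identical copies, and their counts are less certain. The same holds for RPS26A among the higher ones (27.2 CPM in nofix and 0.830 CPM in YPD05).

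In the ratio test 0 isolated ORFs passed in nofix against YPD05 (edgeR), beside 0.0% of all ORFs fitted. At an unadjusted p under 0.05 stood 145 of 859, of which 128 were higher in nofix. The share of all ORFs fitted at that unadjusted limit is not given here. The median log2 difference of the ratio over all ORFs fitted also lay towards nofix, at 0.862, beside 1.78 in the isolated ORFs, so a lean to nofix was not particular to them. The antisense difference was seen at all levels of the sense gene. With the ORFs in 5 classes by sense level, which by itself orders the classes, the antisense share was 50.3 ± 4.88% in nofix and 38.4 ± 0.18% in YPD05 in the class of least sense tags (238 ORFs), 11.6 ± 0.23% and 3.47 ± 0.82% in the middle class, and 0.808 ± 0.18% and 0.158 ± 0.01% in the class of most (SD, n = 2 each). Antisense tags of that last class made 1493 ± 385 CPM in nofix and 352.0 ± 4.18 CPM in YPD05.

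Small colonies were set against big colonies, the comparison the sort was made for. The antisense share was 1.36 ± 0.22% in small (SD, n = 2) and 0.782 ± 0.03% in big colonies (SD, n = 3). The log2 ratio differed by 0.80 (SE 0.17), or 1.74-fold, with no overlap (two-sided exact permutation p = 0.2, the smallest possible for 2 against 3). It was 0.63 without small replicate 4 and 0.96 without small replicate 2. Over all 1186 ORFs the antisense level was higher in small colonies in 307, lower in 568 and without a tag in 311. These numbers were 309, 558 and 319 without small replicate 2 and 87, 703 and 396 without small replicate 4. A set of 12 ORFs held 50% of the antisense tags of small replicate 2 and a set of 40 did so in small replicate 4, against 45, 53 and 68 in the big libraries. Thinned to 1500000 tags, 120.6 ORFs would hold an antisense tag in small replicate 2 and 402.5 in small replicate 4, against 359.5, 360.2 and 494.5 in the big libraries, so small replicate 2 lay below the big libraries and small replicate 4 among them.

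SPG3, a gene needed for survival in stationary phase, held the most antisense tags in small replicate 4 and was singled out for that. It had 10 and 1797 antisense tags in small colonies, 9.43% of the antisense tags of replicate 4, and 7, 0 and 0 in big colonies, with at most 8 in each of the 9 other libraries. Its adjusted p was 0.0591 (edgeR), so it was not called. The most used antisense end of SPG3 held 81.95% of its 1828 antisense tags and is an A in an A-rich stretch, with 4 A in the next 10 genomic bases. Small replicate 4 is also the library with the many antisense ends at A. Whether these tags mark a poly(A) tail was not tested. ISA1 and NUS1, a subunit of the dehydrodolichyl diphosphate synthase, were the 2 antisense counts that passed, both lower in small colonies, 0.411% of 487 beside 1.13% of all features in either direction, 0.632% lower and 0.499% higher. ISA1 had 0 and 0 antisense tags in small colonies and 68, 39 and 67 in big colonies, at least 72.9-fold lower in small. NUS1 had 0 and 0 in small colonies and 24, 53 and 29 in big colonies, at least 41.7-fold lower. Without small replicate 2, 36 antisense counts passed, 9 higher and 27 lower in small colonies. Without small replicate 4, the library with disagreeing labels, 52 passed, 33 higher and 19 lower, so the balance of the calls turned, while without big replicate 1, 2 or 3 there were 0, 1 and 1. No ORF passed in the ratio test of edgeR (0.0% of all ORFs fitted), with 112 of 859 at an unadjusted p under 0.05. The share of all ORFs fitted at that unadjusted limit is not given here. The median log2 difference of the ratio was -0.758 in the isolated ORFs and -0.295 in all ORFs fitted.

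Big colonies did not differ from unsorted fixed particles beyond the spread of the libraries. The log2 ratio averaged -6.99 ± 0.06 in big and -6.97 ± 0.36 in total (SD, n = 3 each), a difference of -0.02 with SE 0.21 (two-sided exact permutation p = 1.0, where 0.1 is the smallest possible), and the libraries overlapped. Its sign turned to 0.01 without big replicate 2, and to 0.08 and 0.09 without total replicate 1 and 3. No antisense count passed (0 of 487 in edgeR, 0 in DESeq2, 16 at an unadjusted p under 0.05, beside 0.0% of all features), nor any ratio (0 in edgeR, 20 at an unadjusted p under 0.05). GAS2, CSS1, USA1 and PEX21 overlapped between the groups. USA1, a scaffold of the Hrd1 ubiquitin ligase in the endoplasmic reticulum, had 46.5, 8.44 and 14.1 antisense CPM in big colonies and 14.8, 42.6 and 23.9 in total, with 0, 3 and 10 sense tags in big colonies and 24, 1 and 3 in total.

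Batch culture at absorbance 2 was set against absorbance 0.5. The antisense share was 0.973 ± 0.23% in YPD2 and 0.660 ± 0.02% in YPD05 (SD, n = 2 each), a log2 difference of the ratio of 0.55 (SE 0.25), or 1.46-fold, without overlap (two-sided exact permutation p = 0.333, the smallest possible). The difference was 0.79 and 0.30 without YPD2 replicate 1 or 2. No antisense count passed (0 in edgeR and 0 in DESeq2, 11 at an unadjusted p under 0.05, beside 0.0% of all features), and no ratio did (0 in edgeR, 19 at an unadjusted p under 0.05). YSR3, given above, was the highest ORF in both YPD2 libraries, with 15.4% and 12.5% of their antisense tags, against 9.60% and 9.69% in YPD05. KTR7 had 127 and 260 antisense tags in YPD2 and 10 and 8 in YPD05 without overlap, and did not pass (log2 3.49, SE 1.09, edgeR adjusted p = 0.968).

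The 3′ ends themselves were compared with those of the same genes' sense transcripts. In the 520 isolated ORFs with at least 50 antisense tags, the most used antisense end with its 12 nt to each side held a median of 36.7% of the antisense tags, against 56.5% for the most used sense end. In 160 ORFs it held over 50%, as in CSS1, YDR061W, ISA1, PEX21 and POM33, and in 89 under 20%, as in GAS2, NAM8 and CDC28. In 118 ORFs it lay closer to the start codon than to the stop codon.

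Efficiency-element letters (any of TATATA, its variant TACATA or likewise TATGTA, on the transcript strand, overlaps counted once) stood within 80 nt before the most used antisense end in 116 of 520 ORFs (22.3%), before the most used sense end in 307 of 518 (59.3%), and in 475 of 10119 windows of 80 nt that tile the antisense strand of the same ORFs (4.69%). The last set lies inside ORFs, whereas many windows before an antisense end reach past the stop codon. Of the 362 antisense windows wholly inside the ORF 47 held such letters (13.0%), against 69 of the 158 that reached past it (43.7%), a division made after seeing the data. AATAAA within 40 nt stood before 5.0% of antisense ends, 10.8% of sense ends and 2.41% of windows of 40 nt inside ORFs, and before 5.399% of the 426 antisense ends whose 40 nt lay wholly inside the ORF. A letter match describes the window and does not show a working site. Runs rich in A right after the end, at least 6 A in the next 10 genomic bases, where a tail in the read cannot be told from the genome, followed 61 antisense ends (11.7%), 133 sense ends (25.7%) and 4.29% of all positions. Of all antisense tags they took 8.92% and 9.01% in nofix and 10.6% to 18.1% in the 12 other libraries, and with them removed the log2 ratio of total against nofix was -2.15.

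**Figure D4:**
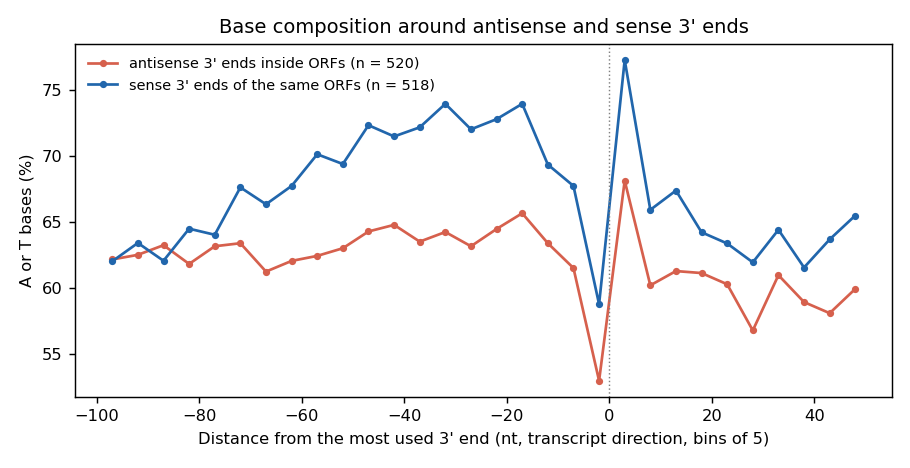
Share of A or T bases in percent (vertical axis) by distance from the most used 3′ end (horizontal axis, nt in transcript direction, bins of 5 nt). Antisense ends inside ORFs (n = 520) and sense ends of the same ORFs (n = 518) both dip in the bin just before the end, to 53.0% and 58.8%, and peak just after it, at 68.1% and 77.3%. An A of the genome next to the end cannot be told from the tail, and few antisense ends outside small replicate 4 were at A. How far the dip and the peak come from this reading of ends was not tested.

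The rule's distance limit is a threshold, so ORFs on its 2 sides are given without a test. The 286 isolated ORFs with the nearest antisense-strand gene 1501 to 2000 nt away had an antisense share of 3.92 ± 0.91% in nofix and 0.968 ± 0.01% in YPD05. The 401 ORFs just outside, at 1001 to 1500 nt, had 4.67 ± 0.43% and 1.19 ± 0.59% (SD, n = 2 each). The 387 isolated ORFs at 2001 to 3000 nt had 5.50 ± 0.71% in nofix and 0.874 ± 0.06% in YPD05. The 513 isolated ORFs with none within 3000 nt had 2.20 ± 0.11% in nofix and 0.467 ± 0.004% in YPD05. The nofix share thus did not fall steadily with distance. ISA1, CAF40 and UGP1, with the nearest such gene 6706, 4488 and 8063 nt away, belong to the last class.

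Genes whose products remove or hold back antisense RNA were read by their sense counts, in a list of 55 genes. In total against nofix 3 of 55 were higher and 0 lower, beside 3.33% of all features called higher, and the median log2 fold change of the 55 was 0.42, against -0.01 over all features. All 3 belong to the 18 genes of the nuclear exosome and TRAMP, whose median was 1.51. Such a rise was not particular to these genes, since 200 of 6010 features were higher in total. The sense counts of NMD3, DBP8 and NOP19, given above, are among them. MTR4, the helicase of TRAMP, was at 2246 ± 611 CPM in total (SD, n = 3) and 264.0 ± 12.8 CPM in nofix (SD, n = 2; log2 3.09, SE 0.75, edgeR adjusted p = 0.0220). RRP45, a subunit of the exosome ring, was at 93.3 ± 19.3 and 10.5 ± 7.97 CPM (log2 3.15, adjusted p = 0.0446). AIR1, the RNA-binding subunit of TRAMP, was at 38.1 ± 30.0 and 0.655 ± 0.31 CPM (log2 5.77, adjusted p = 0.0121).

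Of the same list in nofix against YPD05, AIR1 was lower (log2 -5.18, SE 1.26, edgeR adjusted p = 0.0452), 0 were higher, and the exosome and TRAMP genes had a median of -1.46. The 4 Nrd1-Nab3-Sen1 genes, 23 chromatin genes of the Set2-Rpd3S kind and 10 of cytoplasmic decay gave 0 calls in all 5 comparisons, and the whole list gave 0 in small against big, big against total and YPD2 against YPD05. The levels of the 3 genes are given for the sorted colonies and YPD2 as well. In small replicate 2, with an antisense share of 1.20%, RRP45 was at 7.02 CPM, AIR1 at 10.85 CPM and MTR4 at 955.2 CPM. In small replicate 4, the library with disagreeing labels and a share of 1.51%, they were at 104.3, 41.9 and 345.9 CPM. The big colonies had 92.7 to 146.9, 21.5 to 39.6 and 1501 to 1949 CPM. The YPD2 libraries had shares of 0.812% and 1.14%. There RRP45 was at 42.6 and 41.7 CPM, AIR1 at 14.2 and 9.29 CPM and MTR4 at 2790 and 397.0 CPM. A part of these mRNA levels in the antisense share was not tested. Of the 5 fits that left out a library of total or nofix, the call of AIR1 in total against nofix was made in 2, that of MTR4 in 1 and that of RRP45 in 0, and the call of AIR1 in nofix against YPD05 was made in 0 of 4 such fits.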

How the data were processed

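The authors deposited a table of whole-number counts, without normalization, that gives for each of 542908 positions and strands how many 3′T-fill reads ended there, in a column for every library. Per the submitters' processing notes CASAVA 1.8.2 and GSNAP (2012-01-11) were used with the builds R64 and sacCer3; filters and the treatment of duplicate reads are not given in the sources used here. A column with the sum over libraries was not used (1 column). The strand column was turned, after which 96.6% to 99.4% of the tags of isolated ORFs were sense. Small replicates 1 and 3, which the submitters excluded, were left out of all tests. Small replicate 4 was grouped by its title and its column by the replicate number; its sample type label is that of the unfixed cells, and its barcode was read separately.

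Sense tags were counted inside the ORF and up to 400 nt past its end unless another gene on the strand began first, antisense tags inside the ORF. Antisense and sense counts of a library were compared per ORF and summed. edgeR 4.0.16 (quasi-likelihood, robust, TMM, filterByExpr) was fitted to 14 libraries in 6 groups, with 8 residual degrees of freedom; the ratio fit took ORFs with at least 10 antisense and 10 sense tags. SE was taken as |log2 fold change| / √F. Sums per library were compared with exact two-sided permutation tests over libraries (5 comparisons). In the 10 pairs of same-group libraries chi-square exceeded its degrees of freedom 24.1 to 391.4 times, and all were kept as separate samples. The fits were tested on simulated data. Alternatives included DESeq2 1.42.0, other filters, other distances and leaving out each library. Software was R 4.3.3, limma 3.58.1, Python 3.11.15, numpy 2.4.6, pandas 2.3.3, scipy 1.17.1 and matplotlib 3.10.9.

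The ORFs, gene lists and tests were chosen with earlier results of these data known. Named ORFs are a selection from the 12 with the highest antisense CPM over the group means, up to 5 per direction and comparison with the largest called change of at least 2 CPM and no overlap (3 for the ratio), known antisense loci, and called genes of the list of 55, besides ORFs said in the text to be named for their values. Intervals cover counting error only, since no molecular identifiers are described.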

Additional observations from a re-analysis of the deposited data

Results flagged for a closer look

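The 2 small-colony libraries that the submitters excluded for low quality, replicates 1 and 3, also held antisense tags in the isolated ORFs. Small replicate 1 had 38 antisense and 2456 sense tags, an antisense share of 1.52% (exact 95% interval 1.08% to 2.09%). Small replicate 3 had 4004 and 158864, a share of 2.46% (2.38% to 2.54%). Both lie above the highest YPD05 library, at 0.671%. They rest on few ORFs, 34 in replicate 1 and 56 in replicate 3, where YDR061W held 10.6% of the antisense tags.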

How the results depend on the processing

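Counts of antisense calls moved with the fit, while the direction of the summed log2 ratio held in every comparison except big against total. In total against nofix (24 calls) DESeq2 gave 51, the distance of 3000 nt 9, the 2 groups alone 98, the fit without small colonies 89 and the replicate block 46. In nofix against YPD05 (3) the same settings gave 35, 1, 93, 44 and 24, and no filter 6. In small against big (2), DESeq2 gave 45, removal of A-rich positions 1, 3000 nt 1, the 2 groups alone 0, no filter 4 and the replicate block 29. YPD2 against YPD05 had 1 in the 2 groups alone, and DESeq2 gave 0 there and in big against total. Ratio calls in total against nofix (10) were 4 with at least 50 antisense tags, 19 without small colonies and 41 with the replicate block. Ratio calls in nofix against YPD05 (0) were 7 with the block and 1 with the strands scaled separately, and in small against big (0) 1 and 1. Leaving out 1 library gave 1 to 5 antisense calls in total against nofix, 0 to 0 in nofix against YPD05 and 0 to 52 in small against big, and 0 to 1 ratio calls in total against nofix. With an arm of 1 library left, that library is assumed to vary like the other groups.

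With sense tags inside the ORF only, the log2 ratio differences were 1.54 (small against big), 0.34 (big against total, sign turned), -2.78 (total against nofix), 2.78 (nofix against YPD05) and 0.92 (YPD2 against YPD05). With the first and last 100 nt left out they were 0.53, -2.51 and 2.90 for small against big, total against nofix and nofix against YPD05. In nofix against YPD05 the difference was 2.53 without the 10 strongest ORFs, 2.43 without A-rich positions and 2.26 at 3000 nt. In small against big it was 1.11 at 3000 nt and 1.06 with small replicates 1 and 3 included (two-sided exact permutation p = 0.0571). Leaving out 1 library gave 0.628 to 0.963 in small against big, -0.228 to 0.0929 in big against total (0.009006 without big replicate 2 and 0.0771 without total replicate 1), -2.19 to -1.86 in total against nofix, 2.27 to 2.41 in nofix against YPD05 and 0.302 to 0.789 in YPD2 against YPD05. The cause of these shifts was not tested. Of 180 values under alternatives 118 stayed within the limits set for them. Same-numbered libraries did not pair: their deviations correlated at -0.17 to 0.168 over 26 pairs, 3 of them over 0.1, so the block results describe a shared number only. With the 2 batch cultures' numbers crossed, an alternative chosen after seeing the data, 0 antisense counts passed. Only chromosomes I to XVI were analysed, so the alternative on mitochondrial and transposon ORFs left out transposon ORFs only.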
